A study of Mus musculus with 6 samples.

Results

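The late cornified envelope genes of the Lce1 and Lce3 groups were followed in mouse back skin treated with imiquimod cream or vehicle cream. The members were 10 listed genes, Lce1a1, Lce1b, Lce1c, Lce1d, Lce1f and Lce1g, and Lce3a, Lce3b, Lce3c and Lce3f. They were found as the array probes that carry a member's gene name. Of the 10 genes, 8 had a probe, on 11 probes in all, among 17778 genes tested. All 6 Lce1 genes were represented, by 8 probes, and 2 of the 4 Lce3 genes, Lce3c and Lce3f, by 3 probes. Lce3a and Lce3b had no probe of their own name and were not analysed here. Each of the 11 probes was well above background on all 6 arrays, so all 8 genes passed the filter on dim probes.

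Late cornified envelope genes encode small proteins, rich in cysteine, glycine and proline, that transglutaminases cross-link into the cornified envelope, the protein shell that replaces the plasma membrane of dying keratinocytes at the skin surface. The genes lie side by side in the epidermal differentiation complex, together with genes for involucrin, loricrin, filaggrins and small proline-rich proteins. In human skin the LCE1 group is expressed in the upper layers of healthy epidermis, while the LCE3 group is known for its induction after injury of the barrier and in psoriasis lesions. LCE3 proteins are also known to act against bacteria.

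The animals were female C57BL/6J mice, an inbred strain, aged 6 to 8 weeks. For 7 days both groups received 62.5 mg of cream each day on shaved back skin, either with 5% imiquimod, which activates Tlr7 and is used to provoke psoriasis-like inflammation, or the vehicle alone. RNA of whole skin from 3 samples per group was read on single-colour Agilent arrays, 1 array per sample. The labels number the samples without naming separate animals. The p-values therefore rest on the variation among 3 samples a group, part of which may be technical. In whole skin, fewer cells of a type and less RNA per cell cannot be told apart.

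The treatment of an array was taken from the name of its scanner file, because the files and their filing disagreed. In 6 of 6 files the treatment word in the name was opposite to that of the sample under which the file was deposited. In the deposited value table, 6 of 6 columns matched the scanner file named for the treatment and number in the title of the column's sample. Arrays grouped as filed would give each difference below the same size and p with the opposite sign. The basal keratinocyte genes Krt14 and Krt5 were bright in both groups, with Krt14 between 6.28 and 8.93 and Krt5 between 7.81 and 8.87. Both were called higher in imiquimod, with log2 differences of 2.25 and 0.77. They do not stand for all keratinocyte markers. Of 8 basal genes 3 were higher, 1 was lower (Krt15, at -2.12) and 4 did not pass. Krt2, of the upper layers, was well above background on no imiquimod array. Values here are log2 processed signals minus the 75th percentile of the array, and differences are imiquimod minus vehicle. Imiquimod array 1 and the 3 vehicle arrays shared slide 1, while imiquimod arrays 2 and 3 were on slide 2. Vehicle arrays 2 and 3 carried the quality status evaluate, for negative controls at 40.9 and 45.2 against 31.7 to 37.6 on the other arrays.

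The bases just before the start sites were compared between the groups. RefSeq held a promoter for 9 of the 10 members, all but Lce1f, and the 100 bases before the start are printed 5′ to 3′ on the strand of the gene, with GRCm38.p6 positions. Lce1c and Lce1g are shown as the Lce1 members that passed the test in opposite directions, Lce3c and Lce3f as the Lce3 members measured, and Lce1m as a neighbour described further on. Capitals mark the longest run shared by the 5 Lce1 member promoters in Lce1c and Lce1g, and the run shared by Lce3b, Lce3c and Lce3f in Lce3c and Lce3f. Lce1m has no capitals because it holds neither run. The promoters lie at chr3:92679147-92679246 on the plus strand for Lce1c, chr3:92752339-92752438 on the minus strand for Lce1g, chr3:92944386-92944485 on the plus strand for Lce3c, chr3:92992117-92992216 on the plus strand for Lce3f and chr3:93019062-93019161 on the minus strand for Lce1m.
Lce1c: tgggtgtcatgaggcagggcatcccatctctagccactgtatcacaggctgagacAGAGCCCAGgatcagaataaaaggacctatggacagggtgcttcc
Lce1g: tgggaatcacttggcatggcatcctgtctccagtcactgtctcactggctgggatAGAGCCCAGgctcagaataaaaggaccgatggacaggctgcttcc
Lce3c: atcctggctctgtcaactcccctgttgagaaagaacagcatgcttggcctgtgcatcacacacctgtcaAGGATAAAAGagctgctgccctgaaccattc
Lce3f: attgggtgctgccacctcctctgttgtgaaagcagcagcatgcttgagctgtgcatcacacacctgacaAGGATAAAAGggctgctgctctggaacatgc
Lce1m: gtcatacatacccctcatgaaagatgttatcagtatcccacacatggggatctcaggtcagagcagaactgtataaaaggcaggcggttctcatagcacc

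The Lce1 run AGAGCCCAG began 45 bases before the start, at position -45, in Lce1c and Lce1g. Within 250 bases before the start, on either strand, it was present in 290 of 32851 mouse promoters (0.883%) and in 6 of 20 Lce promoters, those of Lce1a1, Lce1b, Lce1c, Lce1d, Lce1e and Lce1g. The Lce3 run AGGATAAAAG began at position -31 in Lce3c and Lce3f. It was present in 29 of 32851 promoters (0.0883%), and in 5 of 20 Lce promoters, those of Lce3b, Lce3c, Lce3d, Lce3e and Lce3f, but not in Lce3a. The TATA box letters TATAAA, sought in the same way, were in 12.4% of all promoters and in 4 of 20 Lce promoters, Lce1d and Lce1m among them. The run of Lce3 overlaps these letters in part but does not hold them whole. Its closing letters, ATAAAAG, also stand in the printed Lce1c, Lce1g and Lce1m promoters. Those letters alone thus do not set Lce3c and Lce3f apart from these. The AP-1 letters TGANTCA were in 6.75% of all promoters and 0 of 20 Lce promoters, and the CACCC box letters CACCC were in 52.0% and 7 of 20. The Lce1 run was chosen as shared by the 5 Lce1 member promoters, and the Lce3 run as shared by Lce3b, Lce3c and Lce3f, without Lce3a. Their presence in those promoters was thus fixed by the choice. These matches describe letters only.

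The promoters of the 2 groups shared little sequence with each other. Over the 100 bases, and allowing a shift of up to 10 bases, pairs of Lce1 member promoters were identical at 53.5 to 83.0% of bases. The pair at 83.0% was Lce1c and Lce1g, which passed the test in opposite directions. The call of Lce1c held in 11 and that of Lce1g in 3 of 18 alternatives. Lce3c and Lce3f were identical at 66.0%. The 20 pairs of an Lce1 with an Lce3 member lay between 30.9 and 40.4%. Lce3a lay between 31.3 and 38.3% with the other Lce3 members, within the range of pairs across groups.

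**Figure D1:**
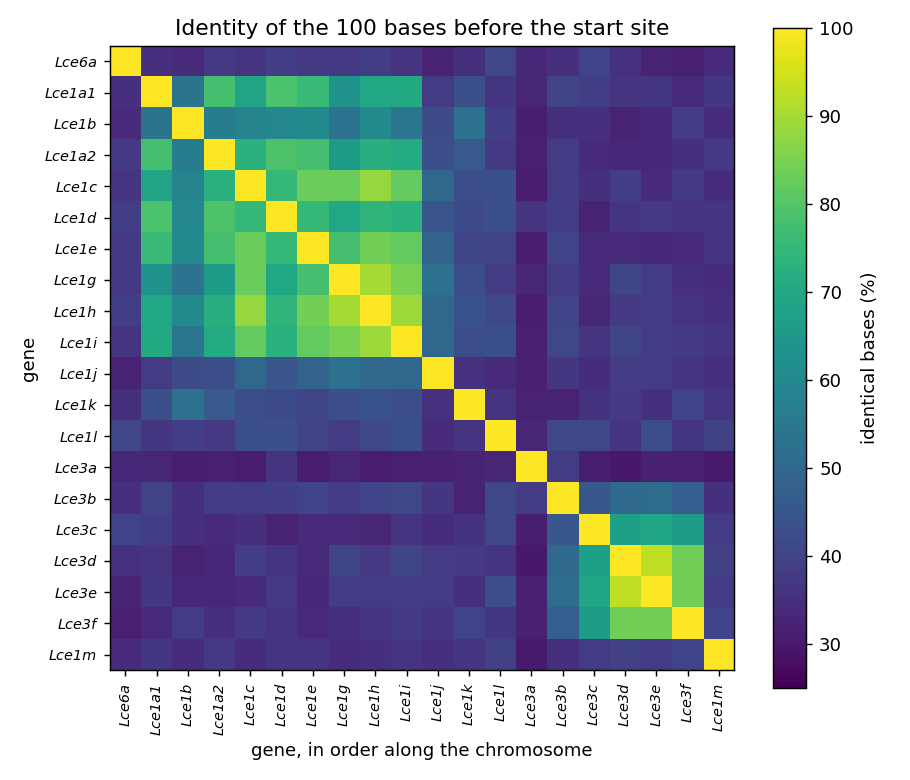
Percent identity of the 100 bases before the start site for each pair of 20 Lce promoters, in chromosome order on both axes, with colour from dark (low) to yellow (100). The block of Lce1a1 to Lce1i and the block of Lce3c to Lce3f stand out, and pairs of a listed Lce1 with a listed Lce3 member stay at or below 40.4%, while pairs with other Lce1 or Lce3 genes reach 43.0%, for Lce1l with Lce3e.

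The 2 groups differed in how the arrays moved. Both measured Lce3 genes rose in the imiquimod arrays, Lce3c by 5.37 and Lce3f by 7.01 on the log2 scale. Of the 6 Lce1 genes, Lce1c fell by 0.98, Lce1g rose by 0.87 and 4 did not pass the test. With other processing this balance turned. Quantile normalization and the deposited value table each called 0 Lce1 genes higher and 3 lower (Lce1a1, Lce1b and Lce1c). Normexp background correction called 0 higher and 2 lower (Lce1a1 and Lce1c). In the analysis as reported, the members called were 3 higher and 1 lower. By limma at an adjusted p under 0.05, 13.1% of all genes tested were called higher and 10.5% lower. The median difference was 6.19 over the 2 Lce3 genes and -0.56 over the 6 Lce1 genes, and their mean -0.32, beside a median of 0.02 over all genes tested.

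Lce3f encodes an Lce3 protein, of the group known for induction in lesional epidermis. It read 6.78, 7.47 and 7.20 on imiquimod arrays 1 to 3 and -1.55, 1.42 and 0.55 on vehicle arrays 1 to 3. All 3 imiquimod arrays were high and close together, the vehicle arrays were low and far apart, and the groups did not overlap. The group means were 7.15 ± 0.35 (SD, n = 3) and 0.14 ± 1.53 (SD, n = 3). The difference was 7.01 ± 0.75 (SE), 129-fold, with a limma adjusted p of 0.00357. Among the 15889 genes well above background on all 6 arrays, 4 had a higher difference, so that Lce3f ranked 5 from the top.

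Lce3c, the other Lce3 gene, read 7.51, 7.76 and 7.56 on the imiquimod arrays and 1.03, 3.17 and 2.52 on the vehicle arrays. As for Lce3f, vehicle array 1 was the lowest and vehicle array 2 the nearest to the imiquimod arrays, and the groups stayed apart. The means were 7.61 ± 0.13 and 2.24 ± 1.10 (SD, n = 3 each), a difference of 5.37 ± 0.53 (SE) or 41.3-fold, with a limma adjusted p of 0.00304. Lce3c ranked 18 from the top of the same 15889 genes. The other Lce3c probe overlaps this one by 26 of its 60 bases and gave 52.5-fold, with a limma adjusted p over probes of 0.00249. That probe also lists the RefSeq accession of Lce3b, so its signal cannot be given to Lce3c alone. Within slide 1, with 1 imiquimod and 3 vehicle arrays, the differences were 5.27 for Lce3c and 6.64 for Lce3f with adjusted p of 0.111 and 0.124, in a fit that called 8 genes in all.

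**Figure D2:**
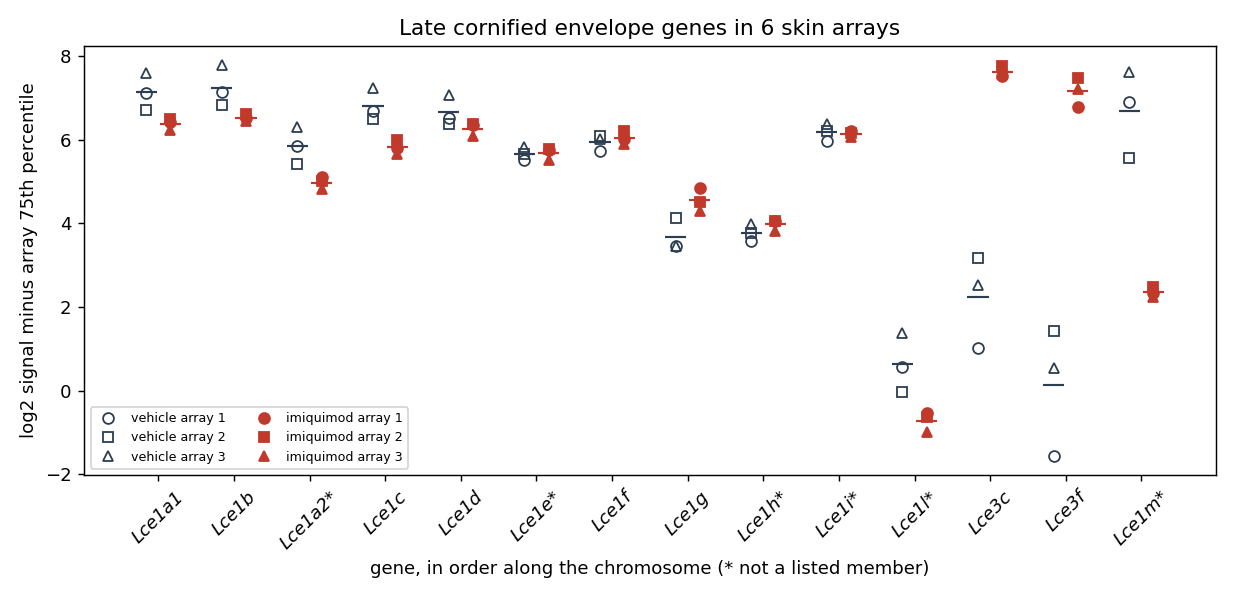
Log2 processed signal minus the 75th percentile of each array for 14 Lce genes, ordered along the chromosome. Open symbols are the 3 vehicle arrays, filled red symbols the 3 imiquimod arrays, and the bars the group means, with genes marked by an asterisk not among the listed members. The Lce3c and Lce3f points split into 2 groups 5.37 and 7.01 apart, Lce1m splits the other way by 4.34, and the group means of the other Lce genes lie at most 1.36 apart.

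Among the Lce1 genes, which encode proteins of the stratum corneum of healthy skin, Lce1c passed the test downward. It read 5.81, 5.98 and 5.66 on the imiquimod arrays and 6.68, 6.49 and 7.22 on the vehicle arrays. Every imiquimod array was below every vehicle array. The difference was -0.98 ± 0.21 (SE), 1.98-fold lower, with a limma adjusted p of 0.0254. With a slide term, and within slide 1, the difference was -0.99, which rests on imiquimod array 1 alone against the 3 vehicle arrays, and the adjusted p was 0.153 and 0.264. The call was also lost on leaving out imiquimod array 1, 2 or 3 (0.0857, 0.064 and 0.0884) or vehicle array 1 (0.0732), with a range of 0.0165 to 0.264 over 18 alternatives.

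Lce1g passed upward. It read 4.84, 4.52 and 4.30 on the imiquimod arrays and 3.45, 4.12 and 3.46 on the vehicle arrays, with vehicle array 2 just below the lowest imiquimod array. The difference was 0.87 ± 0.24 (SE), 1.83-fold, with a limma adjusted p of 0.0478. This call held in 3 of 18 alternatives, the filter on all 6 arrays, the variance trend and leaving out vehicle array 2, and was lost without any of the other 5 arrays, at adjusted p of 0.0804 to 0.145. The other Lce1g probe, with processed signals between 116 and 228, differed by -0.02 with an adjusted p over probes of 0.970.

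The other 4 Lce1 genes did not pass, although Lce1a1 passed in 4 and Lce1b in 3 of 18 alternatives. Lce1a1 read 6.41, 6.50 and 6.24 on the imiquimod arrays and 7.11, 6.71 and 7.59 on the vehicle arrays, a difference of -0.76 ± 0.23 (SE) with a limma adjusted p of 0.0652. Lce1b read 6.51, 6.60 and 6.44 against 7.13, 6.83 and 7.77, a difference of -0.72 ± 0.25 with a limma adjusted p of 0.0848. Both sets of vehicle arrays lay above the imiquimod arrays, and vehicle array 3 was the highest. In the deposited value table they differed by -1.05 and -1.03, with limma adjusted p of 0.0303 and 0.0327. The other Lce1b probe differed by -0.76, with an adjusted p over probes of 0.0529. Lce1d read 6.34, 6.36 and 6.08 against 6.53, 6.37 and 7.07, a difference of -0.39 ± 0.21 with a limma adjusted p of 0.217, and its imiquimod array 2 and vehicle array 2 nearly touched. Lce1f read 6.00, 6.20 and 5.89 against 5.73, 6.08 and 6.02, a difference of 0.09 ± 0.15 with a limma adjusted p of 0.694, and its groups overlapped. Without vehicle array 3, the difference of Lce1b was -0.46 and that of Lce1d -0.19.

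Counted by overlap alone, 3 members had every imiquimod array above every vehicle array and 4 had every imiquimod array below, where this held for 25.9% and 20.7% of all genes tested, 46.6% together. The 3 were Lce3c, Lce3f and Lce1g, and the 4 were Lce1a1, Lce1b, Lce1c and Lce1d. Lce1f was the member with overlap. Without vehicle array 2, 4 of the 6 Lce1 genes passed, Lce1a1, Lce1b, Lce1c and Lce1g, against 2 with all arrays. Without imiquimod array 1, 2 or 3 or vehicle array 1, 0 passed in limma, where 3, 3, 2 and 4 had an unadjusted p under 0.05. Without vehicle array 3, 1 passed. Of all 17778 genes tested, 4196 passed with all arrays, 4673 without vehicle array 2 and 4486 without vehicle array 3. The count fell to 1782, 1822 and 1885 without imiquimod arrays 1, 2 and 3, and to 1689 without vehicle array 1.

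The contrast of Lce3 with Lce1 was then taken on each array. Each gene was centred on its mean over the 6 arrays, and the mean of the Lce1 members was subtracted from that of the Lce3 members. This difference of centred log2 values was 2.96, 3.39 and 3.41 on imiquimod arrays 1 to 3 and -4.57, -2.01 and -3.19 on vehicle arrays 1 to 3. Nearly all of it lay in the Lce3 values, which ran from -4.55 on vehicle array 1 to 3.33 on imiquimod array 2. The centred Lce1 mean stayed between -0.32, on imiquimod array 3, and 0.44, on vehicle array 3. This mean averages genes that moved in opposite directions, from Lce1c at -0.98 to Lce1g at 0.87, so single Lce1 genes were less flat. The median difference of the Lce3 genes exceeded that of the Lce1 genes by 6.75, and by 6.08 to 7.48 when 1 array was left out.

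The members spread more among the vehicle arrays than genes in general. The median SD of the 8 members was 0.16 over the imiquimod arrays and 0.41 over the vehicle arrays, beside 0.15 and 0.23 over all genes tested. For 12 of the 14 Lce genes on the array, vehicle array 2 was the vehicle array nearest the imiquimod mean, the exceptions being Lce1f and Lce1h, for which it was vehicle array 3. Among the 4196 genes called in either direction, 23.6% of those tested, the nearest was vehicle array 2 for 40.8%, vehicle array 3 for 42.2% and vehicle array 1 for 16.9%.

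The 6 other Lce genes of the array were Lce1a2, Lce1e, Lce1h, Lce1i, Lce1l and Lce1m, with a median difference of -0.46. They held 0 called higher and 3 called lower, beside 13.1% and 10.5% of all genes tested. Lce1m, which RefSeq also lists as Lce5a, read 2.34, 2.49 and 2.23 on the imiquimod arrays and 6.90, 5.56 and 7.61 on the vehicle arrays. The groups lay far apart, with vehicle array 2 again the nearest. The difference was -4.34 ± 0.50 (SE), 20.2-fold lower, with a limma adjusted p of 0.00442 (0.130 within slide 1), and 32 of the 15889 genes well above background on all arrays had a lower difference.

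Lce1l read -0.54, -0.63 and -0.99 on the imiquimod arrays and 0.58, -0.02 and 1.37 on the vehicle arrays. It fell by 1.36 ± 0.36 (SE) on the log2 scale, with a limma adjusted p of 0.0435, and was called in 10 of 18 alternatives. Lce1a2 read 5.10, 5.00 and 4.81 against 5.85, 5.41 and 6.30, a difference of -0.88 ± 0.24 with a limma adjusted p of 0.0466, called in 9 of 18 alternatives. In both genes vehicle array 3 was the highest and the groups did not overlap. Lce1e, Lce1h and Lce1i differed by 0.02, 0.21 and -0.05 and did not pass, at limma adjusted p of 0.920, 0.337 and 0.831.

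**Figure D3:**
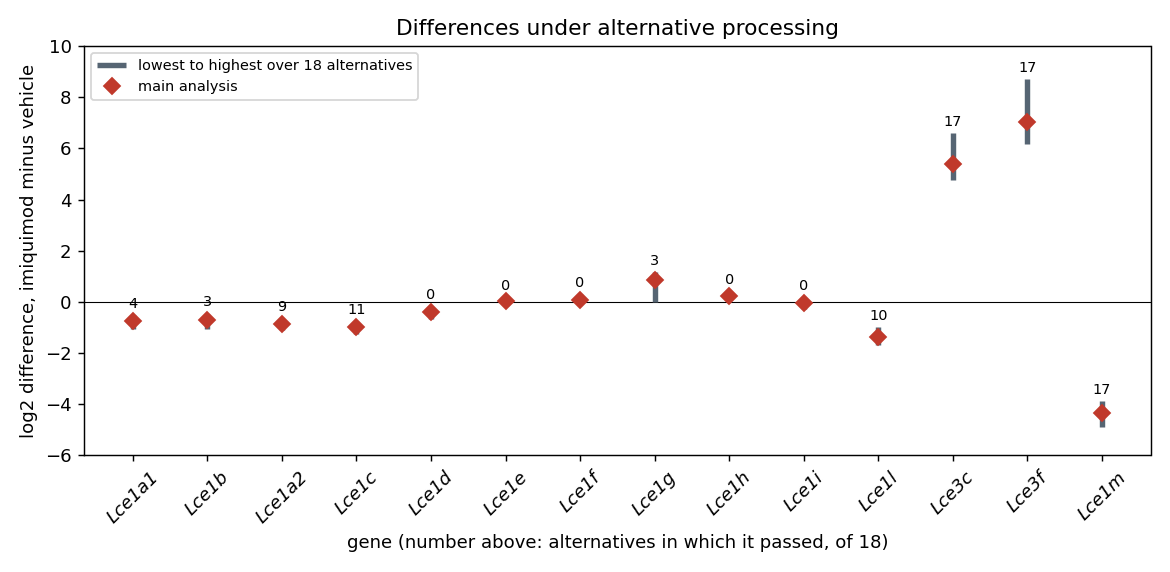
Log2 difference, imiquimod minus vehicle, of the 14 Lce genes in the analysis as reported (diamonds) and its lowest to highest value over 18 alternative settings (bars), with the number of alternatives in which each passed printed above. Lce3c, Lce3f and Lce1m passed in 17 of 18, Lce1c in 11 and Lce1g in 3, and Lce1d, Lce1e, Lce1f, Lce1h and Lce1i in 0.

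Because the Lce genes are close relatives, the probes were compared with each other. The longest run shared by probes of 2 different Lce genes was 17 of 60 bases, between Lce1e and Lce1i and between Lce1g and Lce1i. The probes were compared only with each other, not with transcripts, and cross-hybridization was not tested. The Lce1l probe spans 728 bases of the mm9 genome, where each other Lce probe spans 60.

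Along chromosome 3 the Lce probes covered 371.4 kb in mm9. The Lce1a1 probe lies at chr3:92450489-92450548, Lce1c at chr3:92484714-92484773, Lce1g at chr3:92554289-92554348, Lce3c at chr3:92749506-92749565, Lce3f at chr3:92797277-92797336 and Lce1m at chr3:92821829-92821888. Neighbours moved in different directions. Crct1, which lies between Lce3f and Lce1m, differed by 0.04 with an adjusted p of 0.851, while the genes on its sides rose by 7.01 and fell by 4.34. Kprp, a keratinocyte proline-rich protein gene between the Lce1i and Lce1l probes, differed by -0.37 with an adjusted p of 0.252. The window from 450 kb before the first Lce probe to 450 kb after the last held 36 genes tested. Of these, 14 were higher, 8 lower and 14 did not pass, beside 13.1% of all genes tested called higher and 10.5% lower. On the side of Lce1a1, the Sprr2 genes, for small proline-rich proteins of the envelope, rose, from 0.43 for Sprr2a1 to 8.18 for Sprr2d on the log2 scale, with Sprr2f at a fitted 9.05 but well above background on 2 of the 3 vehicle arrays. On the side of Lce1m, Flg2, for filaggrin-2, differed by -5.56 and Rptn, for repetin, by 4.62, and both passed.

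**Figure D4:**
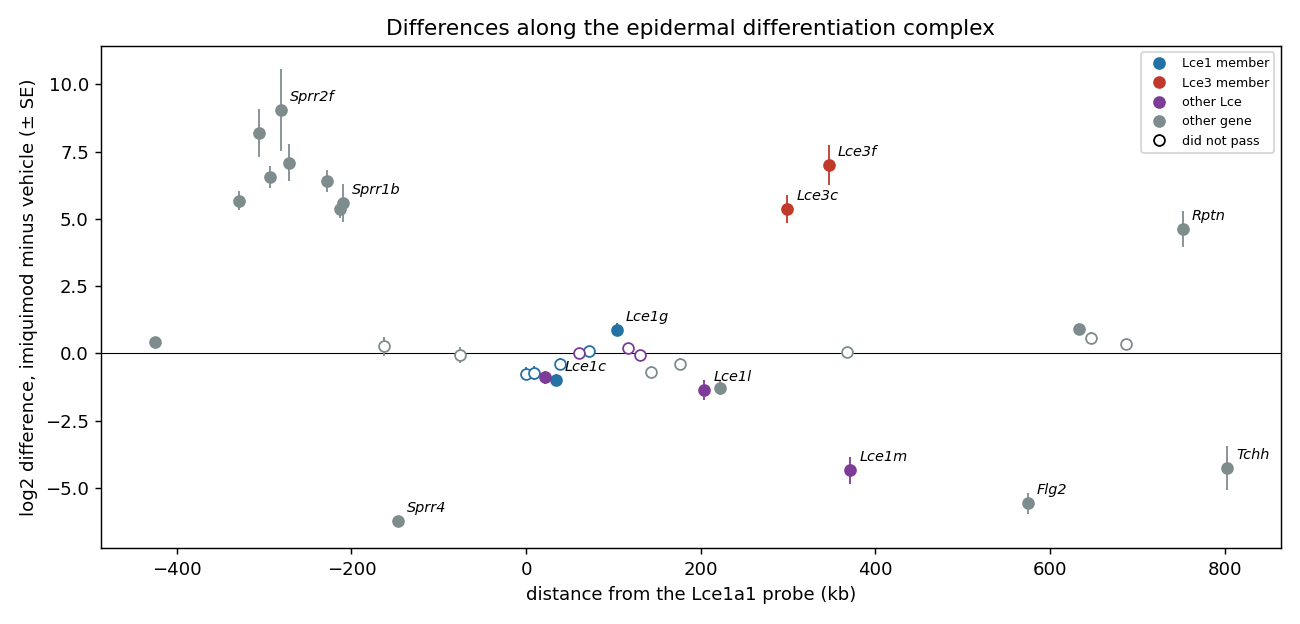
Log2 difference, imiquimod minus vehicle, with its standard error, against the distance in kb from the Lce1a1 probe for the 36 genes tested around the Lce genes. Filled points passed the test and open points did not. The Lce1 members cluster between -0.98 and 0.87, while Lce3c and Lce3f lie at 5.37 and 7.01 and Lce1m, just beside them, at -4.34.

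Other genes of the cornified envelope, 40 on the list, were tested for 33. Of these, 19 were higher, 4 lower and 10 did not pass, beside 13.1% of all genes tested called higher and 10.5% lower. The median difference over the 33 genes was 0.76. The 3 higher genes of smallest p were Sprr2b at 5.67, Sprr2e at 6.55 and Sprr2k at 5.38, all small proline-rich proteins that are cross-linked into the envelope, with limma adjusted p of 0.00142, 0.00151 and 0.00155. The 4 lower genes were Sprr4 at -6.21, Flg2 at -5.56, Krt80 at -1.21 and Krt2, a keratin of the uppermost living layers. Krt2 was well above background on no imiquimod array, so that its level in vehicle was at least 6.45-fold higher. Its limma adjusted p of 0.00142 belongs to the fitted difference, and the bound itself was not tested. Involucrin (Ivl) and loricrin (Lor), major envelope proteins, differed by -0.05 and -0.23 and did not pass. Within slide 1, 1 of the 33 genes passed.

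Regulators of late epidermal differentiation were tested for 25 of 27 listed. Of these, 2 were higher, 2 lower and 21 did not pass, and the median difference was -0.11. Neither count exceeded the share over all genes tested, 13.1% called higher and 10.5% lower. Nfe2l2, which encodes the oxidative stress factor Nrf2, rose by 1.10 (limma adjusted p 0.00641). Gata3, a transcription factor of the epidermal barrier, was 2.82-fold lower (limma adjusted p 0.00433), and Vdr, the vitamin D receptor, fell by 1.15 (limma adjusted p 0.0390).

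The genes nearest to the mean profile of each group over the 6 arrays were found for each group apart. Nearness was the root mean square distance of centred log2 values, among 14888 named genes. Distances to single members were not taken. For the Lce3 mean they were Sprr2h at 0.35, Fpr1, a formyl peptide receptor gene of phagocytes, at 0.36 and Sprr1b at 0.39. Their own differences were 5.76, 6.38 and 5.59, and Fpr1 was well above background on 2 of the 3 vehicle arrays. For the Lce1 mean they were Coq8b at 0.044, Wdr38 at 0.053 and Trip11 at 0.054, which differed by -0.33, -0.34 and -0.38 and did not pass.

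Markers of other cells of the skin differed to unlike degrees, beside 13.1% of all genes tested called higher and 10.5% lower. Most hair follicle and all tested sebaceous gland genes were lower, and most leukocyte genes higher. Most muscle and adipocyte genes did not pass. The summed signal of 15 hair follicle genes, relative to the 75th percentile, was 6.12 to 9.05 on the imiquimod arrays and 857, 1660 and 139 on vehicle arrays 1 to 3, with 12 of 15 lower, 0 higher, and Krt25, Krt34, Krt85 and Krt86 well above background on no imiquimod array. That of 9 leukocyte genes, S100a8 and S100a9 included, which keratinocytes also make, was 820 to 951 against 14.0 to 48.4, with 6 higher, 0 lower and 3 not passed. Most of that sum was S100a8 and S100a9: the other 7 genes summed to 34.4, 57.1 and 41.3 against 10.3, 5.65 and 14.5. The T cell genes Cd3e and Cd3g differed by -0.76 and -0.83 and the macrophage gene Cd68 by 1.05, and these 3 did not pass. The 5 sebaceous gland genes were all lower, at 8.49 to 28.6 against 102 to 105. The 8 basal keratinocyte genes summed to 900 to 1066 against 499 to 660, with 3 higher, 1 lower and 4 not passed. The 8 suprabasal and granular genes summed to 1105 to 1157 against 700 to 941, with 3 higher, 1 lower and 4 not passed. Most of the basal sum was Krt14 and Krt5, and most of the other Krt10, Lor and Krt1. Of 8 skeletal muscle genes 2 were lower and 6 did not pass, and of 5 adipocyte genes 1 was lower and 4 did not pass. The median differences were -7.70 for hair follicle with genes at their bound, 2.36 for leukocyte, -5.74 for sebaceous gland, 0.48 for basal, 0.27 for suprabasal and granular, -0.85 for muscle and -0.41 for adipocyte genes. The part of these shifts in the Lce differences was not tested.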

How the data were processed

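The deposited scanner files hold the linear intensity of each spot, background-subtracted and detrended per the file headers, by Agilent Feature Extraction 10.7.3.1 (9.1 per the submitters' processing notes). The authors' value table holds log2 values, whose normalization is not given in the sources used here. Its columns matched the scanner files at Spearman correlations that round to 0.9999998 or more, against 0.943 to 0.952 for the sample of filing, over 24256 probes. Of 43379 non-control spots, 322 outlier spots were left out, 0 of them on Lce probes, and 0 Lce spots were saturated. Between 61.6% and 67.8% of spots were well above background, and the 75th percentile of the signal was 917 to 1166. The number of arrays limits the precision.

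Values were log2 processed signals minus the 75th percentile of each array. The test took the 27415 of 41115 probes that were well above background on 3 or more arrays, each gene by its tested probe of highest mean. The comparison used lmFit and eBayes of limma 3.58.1 (R 4.3.3), two-sided, with Benjamini-Hochberg adjustment over 17778 genes and a threshold of 0.05, a procedure tested on simulated data. Of these genes, 6937 had an unadjusted p under 0.05. Folds given as at least a value raise dim signals to the lowest well-measured signal of the array.

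The members and gene lists were chosen with earlier results of these data known. Named were all members, all other Lce genes, the 3 called genes of smallest p in each direction of the envelope and regulator lists (all where 5 or fewer were called, except 1 regulator that is not reported here), and the 3 genes nearest in profile to each group. Neighbours on the chromosome, and Krt14, Krt5, Krt15, Ivl and Lor, were named after their values were seen. Probe positions are mm9 per the file headers, and promoters are those of RefSeq on GRCm38.p6. Alternatives were quantile normalization, normexp background correction, the deposited value table, other filters and probe rules, slide and replicate blocks, slide 1 alone, a variance trend, and leaving out arrays. No group was large enough for an outlier test.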

Additional observations from a re-analysis of the deposited data

How the results depend on the processing

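The directions of Lce3c, Lce3f and Lce1m held in 18 of 18 alternatives and their calls in 17, with Lce3c between 4.76 and 6.58, Lce3f between 6.17 and 8.70 and Lce1m between -4.90 and -3.88. The exception was slide 1 alone, where 0 Lce3 genes, 0 Lce1 genes, 0 other Lce genes, 1 other envelope gene and 8 of all genes passed in limma. At an unadjusted p under 0.05 there were 2 Lce3 genes, 1 Lce1 gene, 1 other Lce gene and 3454 of all genes. With slide as a block, 0 Lce1 genes (2 unadjusted), 1 other Lce gene, 11 other envelope genes and 1059 of all genes passed. Lce3c, Lce3f and Lce1m passed there narrowly, at limma adjusted p of 0.0365, 0.044 and 0.0481. Their differences in that fit, 5.27, 6.64 and -4.35, rest on imiquimod array 1 alone against the 3 vehicle arrays. The labels state no pairing of same-numbered samples. Their deviations from the group means correlated at -0.0872, 0.0676 and 0.0854 over genes, which cannot settle whether the numbers pair them. With the replicate block, 0 Lce1 genes (4 unadjusted), 1 other Lce gene and 2207 genes passed, while Lce3c and Lce3f stayed called (adjusted p = 0.0165 and 0.0164). The count of Lce1 genes was 3 with quantile normalization and the deposited value table, all lower, and 1 without the filter on dim probes, with probes averaged per gene, with the probe of lowest mean, and without both arrays of status evaluate. Without the filter 1 other Lce gene passed, and 2874 of 27310 genes in all. Of 17778 genes, 3955 passed with quantile normalization and 3969 with the deposited value table. With probes averaged per gene 3998 passed, and with the probe of lowest mean 3941. Lce1g reversed to -0.0167 with the dimmer of its probes. Without both evaluate arrays, the Lce3 median exceeded the Lce1 median by 8.08. Leaving out 1 array gave 0 to 4 Lce1 genes, 2 to 2 Lce3 genes, 1 to 3 other Lce genes, 16 to 23 other envelope genes and 1689 to 4673 genes in all. The causes were not tested. All Lce genes here were well above background on the 6 arrays.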
